A study of Mus musculus with 5 samples.

Results

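Genes of glutathione synthesis, glutathione conjugation and the Nrf2 response were followed in lenses of newborn mice that lack the RNA-binding protein Celf1. They are 10 genes, *Gclc*, *Gclm*, *Gsta4*, *Gstm1*, *Nqo1*, *Hmox1*, *Srxn1*, *Prdx1*, *Osgin1* and *Me1*, among 19057 genes that have a probe of their own on the array. They were taken by name, with every probe that the platform annotation gives to them, which makes 15 probes of 34885. No probe of the 10 genes passed the test across the whole array, in either direction. The differences were small, and the largest was a 1.44-fold lower *Prdx1* in the mutant on the scale tested.

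The mutant lenses were Celf1cKO/lacZKI; Pax6GFPCre. One *Celf1* allele loses a floxed exon where the *Pax6GFPCre* transgene makes Cre recombinase, from the lens placode stage onward, and the other carries the *lacZ* insertion in every cell of the mouse. Control lenses were labelled wild-type on a mixed C57BL/6J and FVB background, while the methods for the wider study name floxed mice without Cre and Cre mice with intact *Celf1* as controls. Which of these the arrays hold is not settled. There were 3 mutant arrays (A, B and C) and 2 control arrays (A and B), all at postnatal day 0 and with RNA of 2 lenses per array. Because a lens holds both epithelium and fiber cells, a lower level per cell and fewer cells of a type cannot be told apart.

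Glutathione is the main small thiol of the lens and is known for keeping lens proteins reduced and the tissue clear. It is built in a pair of steps, of which the first is limiting, and is then spent by transferases and peroxidases. Nrf2, encoded by *Nfe2l2*, is a transcription factor that Keap1 marks for breakdown in unstressed cells. Under oxidants or electrophiles Nrf2 escapes, joins a small Maf protein and binds antioxidant response elements near genes such as the 10 described here.

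The antioxidant response element has the core TGACNNNGC. It was searched on both strands of the RefSeq promoter windows (build GRCm38.p6), each running from 250 bases before a transcript's start to 50 after it. The table holds 7 of the 10 genes, with 9 windows, and 4 of the 7 genes carry the core. It is held by 12.4% of all 32851 windows and by 14.0% of all 27025 genes with a window. The 30 bases around each core are shown because Nrf2 is known for binding this element. The genes were taken by name and not by this core. They were named as genes of glutathione and the Nrf2 response, so their share with the core is no independent comparison. The core is in capitals and each line reads along the strand that carries it.
*Gclm*, chr3:122245413-122245442, minus strand: ctcgtgagagtTGACGGTGCgcccgggagc
*Prdx1*, chr4:116685456-116685485, minus strand: cctacgggggaTGACTCAGCgctttccctg
*Me1*, chr9:86695901-86695930, minus strand: gatgccgccgTGACTCAGCgcttctcgcgg
*Srxn1*, chr2:152105542-152105571, minus strand: gtgtctcactcTGACCTAGCtgcccactgc
Read along the gene, the core begins 134 bases before the start site in *Gclm*, 133 in *Prdx1* and 6 in *Me1*, where it runs across that site, while in *Srxn1* it begins 29 bases into the transcript. The cores of *Prdx1* and *Me1* have the same letters. *Gstm1*, *Nqo1* and *Osgin1* had no match in their windows, which says only that these letters are not there. A match is a string of letters and not a measured binding site.

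Intensities are linear, background-corrected values that the authors normalized between arrays by the Rank Invariant method. Array medians lay between 5.6 and 7.2, and 3442 to 8205 of 45281 probes per array read 0 or less. The constant 36.5 was added before log2, so fold changes of dim probes are understated. Differences are mutant minus control on this shifted log2 scale. Their p-values come from limma, with Benjamini-Hochberg adjustment over the 34885 probes and a threshold of 0.05. With 3 arrays against 2, an exact permutation test of a single probe cannot go below p = 0.1.

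*Celf1* was lower in the mutant on 3 of its 4 probes, with log2 differences of -2.14, -1.38 and -1.44 that passed. The fourth, of another transcript record, differed by 0.47 (adjusted p = 0.121). The position of each probe against the deleted exon was not examined. The arrays also differ in sex-linked RNA. On its brightest probe *Xist*, which is made from the silenced X chromosome, read -0.3, -0.9 and 264 for mutants A, B and C, against 432 and 441 for the controls. The brighter probe of the Y-linked *Eif2s3y* read 207 and 177 for mutants A and B and 4.4 or less for the other 3 arrays. Its dimmer probe read 7.6 to 10.4 on all arrays and differed by 0.01. Mutant array C was thus the only mutant array with *Xist* signal and little *Eif2s3y* on the brighter probe, as in the controls. Its *Xist* still lay below both controls on every *Xist* probe. Results are also given without array C and for array C alone. Without array C, all mutant arrays differ from all controls in these RNAs, so genotype and sex-linked RNA cannot be told apart there.

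Across the 15 probes, 9 were higher and 6 lower in the mutant, and 0 passed an adjusted p under 0.05, where 4.28% of all probes did. At an unadjusted p under 0.05 there were 5, with 3 higher and 2 lower, against 15.2% of all probes. In 7 probes the mutant and control arrays did not overlap, 4 of them higher and 3 lower, against 30.9% of all probes. The median difference was 0.02, beside 0.00 over all probes. No probe reached 2-fold on the shifted scale. That scale understates dim probes such as *Osgin1*, with means of 10.9 in the mutant and 3.8 in the control. Adjusted p-values ran from 0.130 for a probe of *Srxn1* to 0.9999 for a probe of *Nqo1*. All 15 intervals of the difference ended short of 2-fold on the shifted scale.

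**Figure D1:**
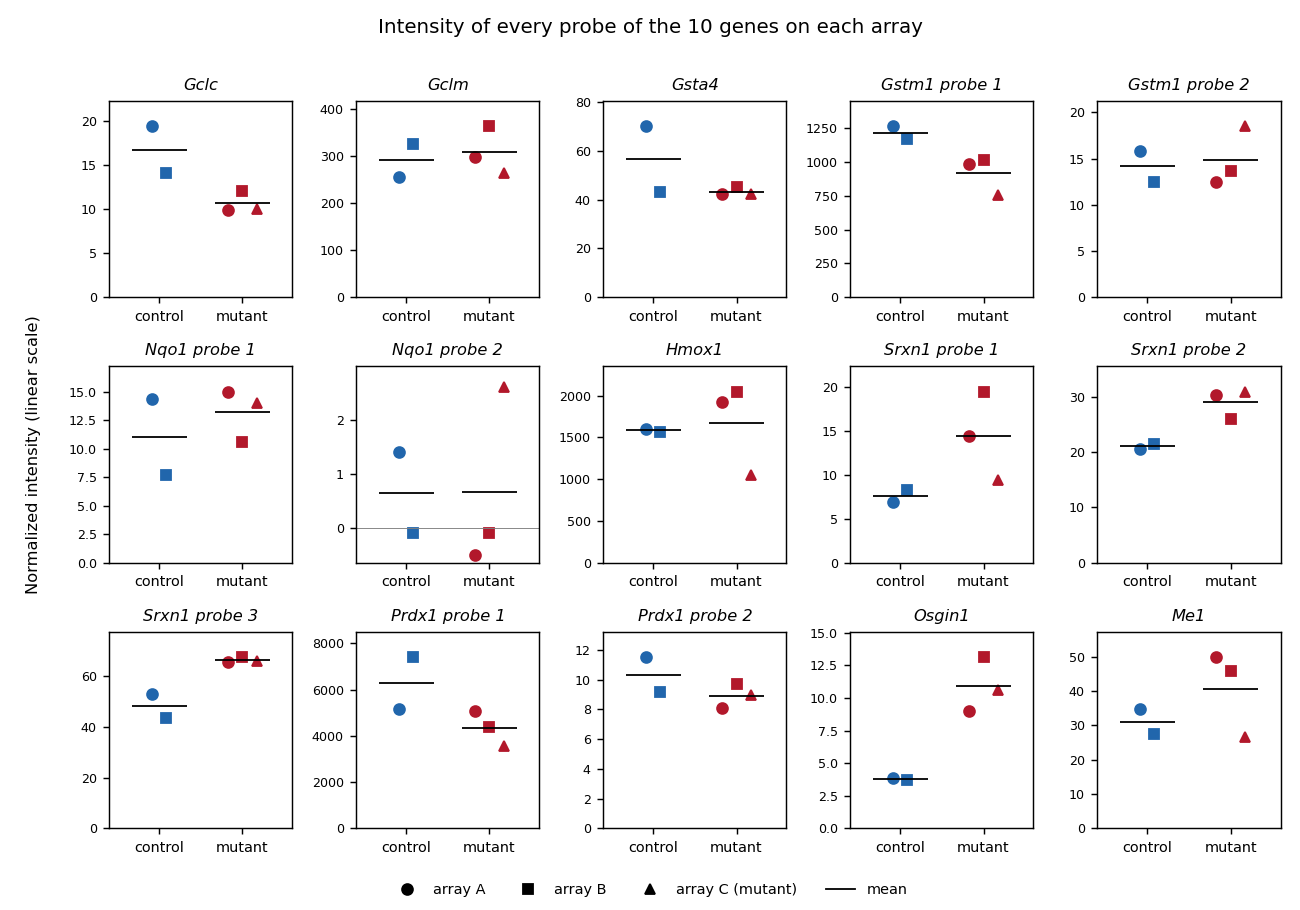
Normalized intensity (linear scale, each panel with its own axis) of the 15 probes of the 10 genes on each array, with controls in blue, mutants in red, the array letter by symbol and the group mean as a line; probes of one gene are numbered in the order of their identifiers. *Osgin1*, all 3 *Srxn1* probes, *Gclc* and the first probes of *Gstm1* and *Prdx1* separate the groups, and mutant array C sits below the other arrays for *Hmox1* and *Me1*.

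Glutamate-cysteine ligase carries out the first step of glutathione synthesis and is made of a catalytic subunit, *Gclc*, and a modifier subunit, *Gclm*, which raises its efficiency. *Gclm* read 298, 363 and 264 for mutants A, B and C, against 254 and 326 for controls A and B. The groups overlapped, with a difference of 0.08 (95% interval -0.25 to 0.41, adjusted p = 0.864). Its direction turned once mutant B or control A was left out, and in mutant array C alone. *Gclc* was dim, at 9.9, 12 and 10 on the mutant arrays and 19.4 and 14.1 on the controls. Each mutant array lay below both controls, but the difference of -0.17 (95% interval -0.36 to 0.01, adjusted p = 0.375) did not pass. Without control A it was -0.10 (adjusted p = 0.538).

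Glutathione transferases join glutathione to reactive compounds. *Gsta4*, an alpha-class enzyme known for clearing the lipid peroxidation product 4-hydroxynonenal, read 42.3, 45.0 and 42.4 in the mutant and 70.1 and 43.0 in the control. Control array A alone stood above the rest, and the difference of -0.21 (standard error 0.12, adjusted p = 0.507) became 0.00 without that array. *Gstm1* is a mu-class transferase. Its brighter probe read 981, 1017 and 755 for mutants A, B and C, against 1264 and 1170.2 for the controls. The mutant mean was 918 ± 142 (SD, n = 3), against 1217 ± 66.6 (SD, n = 2) in the control. Every mutant array lay below both controls. The difference of -0.40 (standard error 0.13, 95% interval -0.71 to -0.10), a 1.32-fold lower intensity, did not pass (adjusted p = 0.171). It was -0.27 without mutant array C (adjusted p = 0.177) and -0.66 in mutant array C alone (adjusted p = 0.0554). The dimmer *Gstm1* probe, at 12.5 to 18.5 on all arrays, overlapped between the groups and differed by 0.02 (adjusted p = 0.954). Mu-class genes are close in sequence, so part of a probe's signal may come from a relative, which was not tested.

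*Nqo1* encodes a quinone reductase and is among the most used readouts of Nrf2 activity. One probe read 15.0, 10.6 and 14.0 in the mutant and 14.4 and 7.7 in the control, a difference of 0.07 (adjusted p = 0.810). The other read between -0.5 and 2.6 on all 5 arrays and differed by 0.00 (adjusted p = 0.9999). Groups overlapped on both probes.

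*Hmox1* encodes the inducible heme oxygenase, which breaks down heme. Its probe read 1919, 2045 and 1054 for mutants A, B and C, against 1605 and 1559.8 for controls A and B. Arrays A and B were above both controls and array C below both, so the mutant mean of 1672 ± 539 (SD, n = 3) had a spread far wider than that of the control, 1582 ± 31.7 (SD, n = 2). The difference was 0.02 with a 95% interval of -0.56 to 0.61 (adjusted p = 0.984), the widest interval among the 15 probes. Without mutant array C the difference was 0.32 (adjusted p = 0.107), and in array C alone it was -0.57 (adjusted p = 0.0831). Macrophages and red blood cells handle heme as well. The 9 measured macrophage and leukocyte markers summed to 153, 92.0 and 98.5 for mutants A, B and C, against 90.9 and 97.7 for the controls, with each marker at 35.1 or less. The 7 red blood cell markers summed to 12069, 3974 and 5650 on the mutant arrays and to 3860 and 5541 on the controls. Their part in the spread of *Hmox1* was not tested.

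Peroxiredoxins reduce hydrogen peroxide with thioredoxin, and sulfiredoxin, encoded by *Srxn1*, restores peroxiredoxins that have been over-oxidized. The 3 *Srxn1* probes had differences of the same sign. The brightest read 65.5, 67.4 and 66.1 in the mutant and 53.1 and 43.7 in the control, a mean of 66.3 ± 0.971 (SD, n = 3) against 48.4 ± 6.65 (SD, n = 2). All mutant arrays lay above both controls. The difference was 0.28 (standard error 0.08, 95% interval 0.09 to 0.47), or 1.21-fold, with adjusted p = 0.130, the lowest among the 15 probes. A second probe read 30.3, 26 and 30.9 against 20.6 and 21.5, a difference of 0.19 (adjusted p = 0.305), and the dimmest 14.5, 19.5 and 9.4 against 6.9 and 8.3, a difference of 0.20 (adjusted p = 0.401). Both were again without overlap and neither passed. All probes belong to the same transcript record, so they are repeated readings of the same RNA and not separate evidence. Over 14 alternatives the brightest probe stayed between 0.18 and 0.36, with adjusted p-values from 0.0799 to 0.560. The dimmest was less steady, and its difference was 0.13 without mutant B and 0.06 in mutant array C alone (adjusted p = 0.764 and 0.969).

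*Prdx1*, a cytosolic peroxiredoxin, had the largest difference of the 10 genes. The brighter probe read 5092, 4364 and 3545 for mutants A, B and C, against 5158 and 7390.2 for controls A and B. The groups did not overlap, but mutant array A and control array A were almost alike, and the control mean of 6274 ± 1578 (SD, n = 2) rested on 2 distant values. The difference of -0.52 (standard error 0.19, 95% interval -0.96 to -0.09) did not pass (adjusted p = 0.222). It was -0.26 without control array B (adjusted p = 0.762) and -0.79 in mutant array C alone (adjusted p = 0.113). The other *Prdx1* probe read 8.1 to 11.5 and differed by -0.04 (adjusted p = 0.851).

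*Osgin1* encodes a stress-induced growth inhibitor, and *Me1* the cytosolic malic enzyme that makes NADPH, the reductant with which oxidized glutathione is restored. *Osgin1* read 9.0, 13.1 and 10.6 in the mutant and 3.9 and 3.7 in the control. All mutant arrays were higher, but at values this near to background the difference of 0.23 (standard error 0.08, adjusted p = 0.186) did not pass. *Me1* read 49.8, 45.8 and 26.6 for mutants A, B and C, against 34.7 and 27.5 for the controls. Arrays A and B lay above both controls and array C below both, as for *Hmox1*. The difference of 0.18 (standard error 0.14, adjusted p = 0.629) was 0.09 without array A (adjusted p = 0.881), 0.10 without control B (adjusted p = 0.937), 0.32 without array C (adjusted p = 0.136) and -0.10 in array C alone (adjusted p = 0.937).

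**Figure D2:**
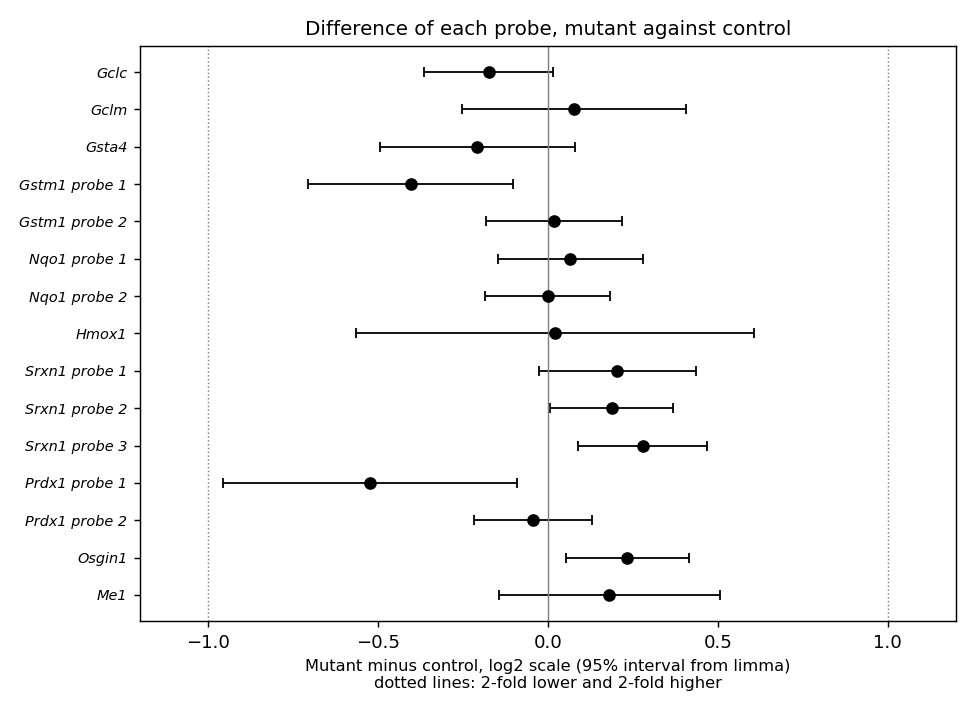
Difference of each of the 15 probes, mutant minus control on the shifted log2 scale, with the 95% interval from limma; the dotted lines mark 2-fold. All intervals lie within the dotted lines, those of *Prdx1* probe 1 and *Hmox1* are the widest, and the 5 that leave out 0 are *Gstm1* probe 1, *Srxn1* probes 2 and 3, *Prdx1* probe 1 and *Osgin1*.

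The 4 genes with a core in their promoter window did not share a direction. With all arrays, *Srxn1*, *Me1* and *Gclm* had positive differences and *Prdx1* a negative one. The direction of *Gclm* turned with the arrays used, and that of *Me1* turned in mutant array C alone (-0.10). *Prdx1* and *Me1*, whose cores have the same letters, differed by -0.52 and 0.18 with all arrays, and neither passed. No probe of the 10 genes passed under any of 14 alternative settings (13 for the dimmer *Nqo1* probe, which a filter on dim probes removed), which include each array left out in turn and mutant array C alone against the controls. The lowest adjusted p over all of these was 0.0554, for *Gstm1* in mutant array C alone, an arm of 1 array that is assumed to vary like the controls.

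**Figure D3:**
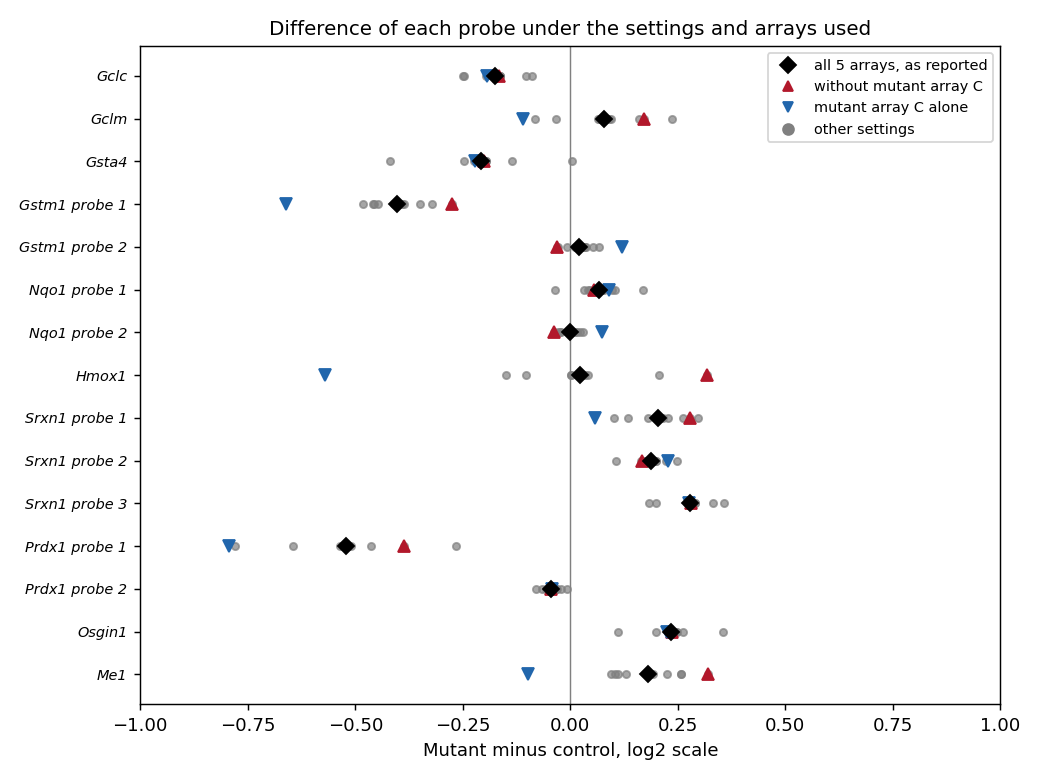
Difference of each of the 15 probes (mutant minus control, shifted log2 scale) with all 5 arrays (diamond), without mutant array C (triangle up), in mutant array C alone (triangle down) and under the other settings (grey). *Hmox1* goes from 0.32 to -0.57 and *Me1* from 0.32 to -0.10 between the arrays without C and array C alone, while *Srxn1* probe 3 and *Osgin1* keep to the right of 0 throughout.

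Other genes of the same pathways were read from 6 lists, each gene by its brightest probe in a fit over all 19057 genes. Among 100 measured genes of the 105 listed, 8 rose and 2 fell at an adjusted p under 0.05 from limma, where 3.15% of all genes rose and 2.68% fell. The median difference was -0.01, beside 0.00 over all genes. The lists were drawn up with earlier results of these data known, so these shares are no independent comparison. Without mutant array C, where genotype and sex-linked RNA cannot be told apart, the count was 15. Of these, 13 were higher and 2 lower, and 9 of the 10 genes were among them. Mutant array C alone also gave 10 genes, but with 5 higher and 5 lower, and only 4 of the original 10 were among them (*Sqstm1*, *Chac1*, *Gstp2* and *Gpx8*). Leaving out mutant A gave 6, mutant B 5, control A 5 and control B 1. With a single control left, its spread is assumed to equal that of the mutants. Of the 10, *Sqstm1* alone passed in all 14 alternatives.

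Among Nrf2 and its regulators, 3 of 16 genes rose and 0 fell, with a median of 0.10. *Sqstm1*, the autophagy receptor p62, which binds Keap1, read 2778, 2895 and 2147 in the mutant and 678 and 764 in the control. The groups stood far apart, with a difference of 1.79 (standard error 0.14, adjusted p = 0.00154), or 3.47-fold. The list was drawn up with this rise known, so *Sqstm1* is no independent evidence for it. *Mafg*, a small Maf partner of Nrf2, rose by 0.53 (adjusted p = 0.0141), from 890 ± 70.6 (SD, n = 2) to 1299 ± 42.6 (SD, n = 3). Its second probe did not pass (0.30, adjusted p = 0.271 over the probes). *Nfe2l1*, an Nrf2 relative known for controlling proteasome genes, rose by 0.55 (adjusted p = 0.0170). *Mafg* lost its call once mutant B or either control was left out (adjusted p = 0.0542 to 0.0647), and *Nfe2l1* once mutant A, mutant B or either control was (adjusted p = 0.0541 to 0.0915). Neither passed in mutant array C alone (adjusted p = 0.0850 and 0.168). *Nfe2l2* itself was dim, at 17.7, 11.5 and 10.9 in the mutant and 15.0 and 14.5 in the control (difference -0.04, adjusted p = 0.875). *Keap1* read 215, 198 and 206 against 222 and 204, a difference of -0.04 (adjusted p = 0.880), and its other probes differed by -0.33 to 0.11 without passing. *Bach1*, a repressor at the same elements, differed by -0.20 (adjusted p = 0.532). Arrays measure RNA, and Nrf2 is controlled mainly through its protein.

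Of 17 genes for glutathione synthesis, breakdown and reduction, 2 rose and 0 fell, with a median of 0.00. The larger rise was in *Chac1*, an enzyme that breaks glutathione down and is known as a target of the ATF4 and CHOP stress response. It read 125, 126 and 54.3 for mutants A, B and C, against 5.2 and 12.1 for the controls, a difference of 1.57 (standard error 0.25, adjusted p = 0.0121), or 2.97-fold. *Chac1* did not pass once control A or control B was left out, nor with the lowest value set to 64. Over the alternatives its difference lay between 0.97 and 1.98. With controls this near to background, the fold depends on the added constant. *Idh1*, a cytosolic NADPH-producing dehydrogenase, rose by 0.62 (adjusted p = 0.0220), from 397 ± 54.3 (SD, n = 2) to 628 ± 57.4 (SD, n = 3). It did not pass once mutant A, mutant B or control B was left out (adjusted p = 0.0560, 0.0509 and 0.145), or in mutant array C alone (adjusted p = 0.0973). *Slc7a11*, the cystine carrier that feeds glutathione synthesis, differed by -0.14 on its brightest probe (adjusted p = 0.628). *Gsr*, *Ggt1* and *G6pdx* had no probe that names them and are not reported.

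*Gss*, glutathione synthetase, catalyses the second step of synthesis and has 4 probes that read differently. On its brightest probe the mutant arrays read 1152, 1392 and 1383 and the controls 1123 and 1151, a difference of 0.19 that did not pass (adjusted p = 0.413 over the genes). On another probe of the same transcript record they read 1292, 1419 and 1410.4 against 942 and 733, which is 0.70 (standard error 0.11, adjusted p = 0.0164 over the probes), or 1.62-fold. The remaining probes differed by 0.18 and 0.32 (adjusted p = 0.421 and 0.277). All 4 were higher in every mutant array than in both controls. The probe that passed failed the threshold without mutant array B, without control array B and in mutant array C alone (adjusted p = 0.0647, 0.0789 and 0.0779).

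Of 23 other glutathione transferases, 1 rose and 1 fell, with a median of -0.01. *Gstp2*, a pi-class enzyme, read 2421, 1746 and 1925 in the mutant and 876 and 1093 in the control, a difference of 1.01 (standard error 0.15, adjusted p = 0.0109), or 2.02-fold. Its near-identical neighbour *Gstp1* differed by 0.20 (adjusted p = 0.397), and how far each probe reads the other gene was not tested. *Gstm2*, of the same class as *Gstm1*, fell by 0.67 (standard error 0.13, adjusted p = 0.0290), from 717 ± 25.0 (SD, n = 2) to 441 ± 72.0 (SD, n = 3). Its other probes had differences of -0.57 (adjusted p = 0.0301 over the probes) and -0.37 (adjusted p = 0.265). *Gstm4* and *Gstm6* had differences of -0.25 and -0.45 that did not pass (adjusted p = 0.215 and 0.0695). *Gsta3*, of the class of *Gsta4*, had one of -0.49 that did not pass either (adjusted p = 0.0873). The mu-class *Gstm3*, *Gstm5* and *Gstm7* differed by 0.12, -0.18 and -0.07, and the alpha-class *Gsta1* and *Gsta2* by -0.01 and 0.13. Groups overlapped for all of these, and none passed (adjusted p = 0.550 to 0.987). *Mgst1* and *Gstt2* were higher in every mutant array than in both controls, by 0.39 and 0.31, without passing (adjusted p = 0.141 and 0.165). Neither *Gstp2* nor *Gstm2* passed once either control was left out.

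Of 15 peroxidases, peroxiredoxins and glutaredoxins, 1 rose and 1 fell, with a median of -0.07. *Gpx8*, a peroxidase of the endoplasmic reticulum, read 178, 225 and 192 in the mutant and 369 and 417 in the control. The groups did not overlap, and the difference was -0.88 (standard error 0.11, adjusted p = 0.00582). It failed the threshold in 1 of 14 alternatives, the one without control B (adjusted p = 0.0629). Both other *Gpx8* probes were lower in every mutant array as well, with differences of -0.81 (adjusted p = 0.00503 over the probes) and -0.78 (adjusted p = 0.0849). *Gpx4*, which reduces lipid peroxides, rose by 0.49 (adjusted p = 0.0442) but passed in 2 of 14 alternatives only. Another *Gpx4* probe, at 561 to 581 in the mutant and 422 to 448 in the control, differed by 0.37 (adjusted p = 0.0372 over the probes), and the dimmest by -0.05 (adjusted p = 0.834). *Prdx2* and *Prdx4* had differences of -0.07 and -0.05 (adjusted p = 0.808 and 0.880). *Glrx5*, *Gpx3* and *Gpx1* were higher in every mutant array than in both controls, by 0.60, 0.54 and 0.26. None of them passed (adjusted p = 0.0886, 0.0806 and 0.356). *Gpx2* and *Prdx3* were lower in every mutant array, with differences of -0.22 and -0.21 that did not pass (adjusted p = 0.342 and 0.359). *Prdx5* and *Prdx6* had no probe that names them and are not reported.

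Of 28 measured genes in the list of other Nrf2 targets, 2 rose and 0 fell, with a median of -0.06. This list is not a tally of all targets: *Sqstm1*, *Mafg* and the transferases were placed in other lists and are not counted in it. *Idh1* is counted above, and *Cbr1*, a carbonyl reductase, rose by 0.42 (adjusted p = 0.0422) and passed in 6 of 14 alternatives. *Txnrd1*, the cytosolic thioredoxin reductase, read 10.1 to 12.0 on all arrays and differed by 0.00 (adjusted p = 0.9997). The ferritin chains *Fth1* and *Ftl1* differed by -0.17 and -0.11 (adjusted p = 0.578 and 0.882). Of 8 close relatives of the 10 genes, 0 rose and *Gstm2* fell. *Hmox2*, the constitutive heme oxygenase, differed by 0.05, *Me2* by 0.18 and *Nqo2* by 0.45 (adjusted p = 0.922, 0.572 and 0.0601).

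**Figure D4:**
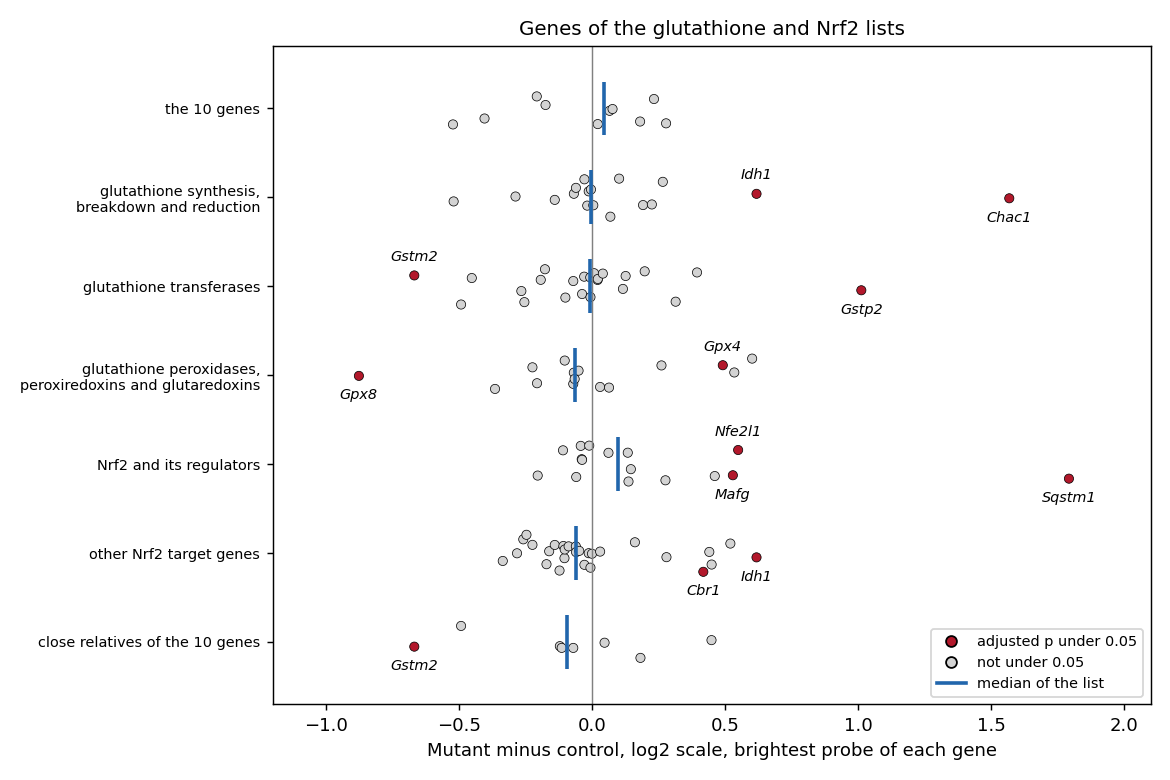
Difference of each gene (brightest probe, mutant minus control, shifted log2 scale) in the 10 genes and the 6 lists, with genes at an adjusted p under 0.05 in red and named, and the median of each list as a blue line; vertical scatter within a list only separates points, and a gene may stand in more than 1 list. The list medians lie between -0.09 and 0.10, and *Sqstm1* and *Chac1* lie farthest to the right.

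**Figure D5:**
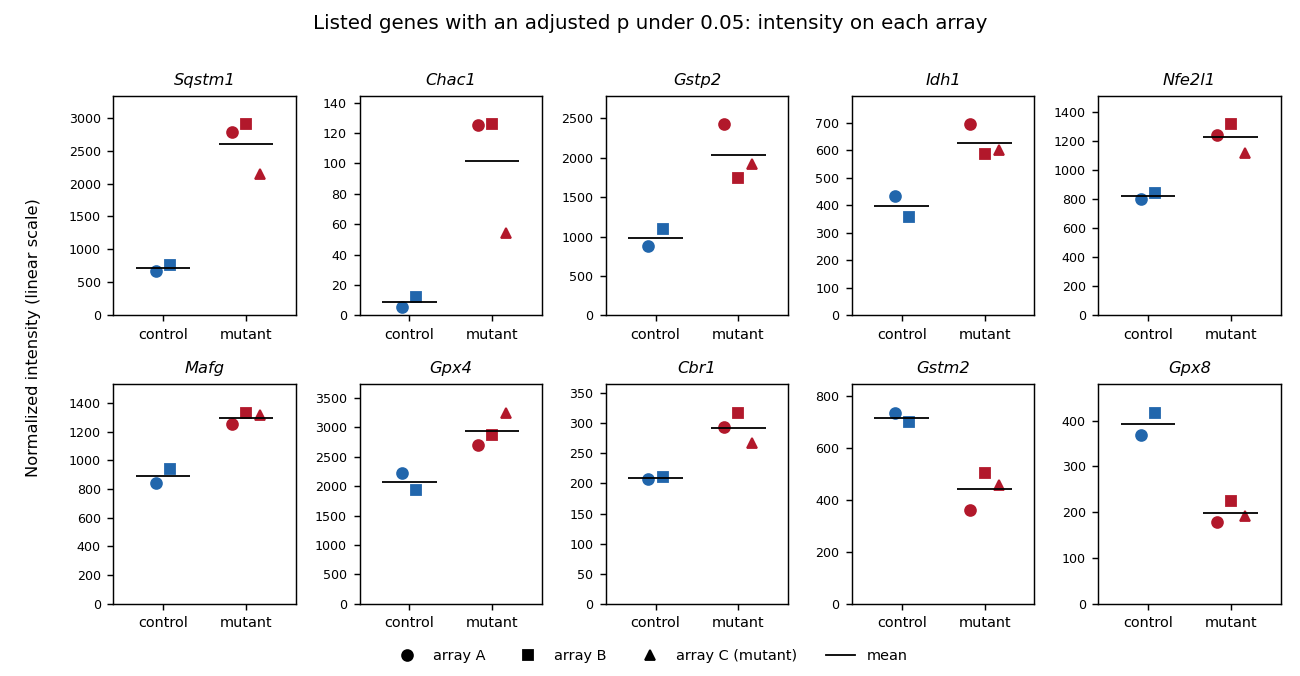
Normalized intensity (linear scale, own axis per panel) on each array of the 10 listed genes at an adjusted p under 0.05, drawn as in the plot of the probes of the 10 genes. In every panel all mutant arrays lie beyond both controls, and mutant array C is the lowest mutant array for *Sqstm1*, *Chac1*, *Nfe2l1* and *Cbr1*.

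The labelled tissue was checked with markers. Lens markers were bright, with *Cryaa* between 21935 and 24620 on all arrays, and 2 of 9, *Lim2* and *Bfsp2*, fell while 0 rose. Among the alternatives, *Bfsp2* passed only with dim probes left out. *Lim2* did not pass with quantile normalization, without mutant B or control B, or in mutant array C alone. The lens markers summed to 103614 to 119533 in the mutant and 129676 to 138984 in the control. Sums of 7 vessel, 6 retina, 6 pigment cell and 9 cornea and mesenchyme markers overlapped between the groups, and none of these markers, nor of the red blood cell and leukocyte markers, passed. Whether the lower lens marker sum has a part in the differences above was not tested.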

How the data were processed

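Lenses of newborn mice were measured on 5 Illumina MouseWG-6 v2.0 arrays, 3 mutant and 2 control. The authors corrected the background with lumi and applied Rank Invariant normalization; the intensities they deposited are linear, 1 per probe and array. Versions and genome build: not given in the sources used here. Detection p-values were not used here, so no background limit per probe was set. Precision is limited by the number of arrays.

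Of 45281 probes, the platform annotation gives 1 gene to 34885, several to 18 and none to 10378. The constant 36.5 puts the lowest value at 16. log2 values were fitted with limma 3.58.1 in R 4.3.3 (group only, two-sided, Benjamini-Hochberg), over all probes for the 10 genes and over 19057 genes, each by its brightest probe, for the lists. The code was tested on simulated data. Promoter sequences are from RefSeq (GRCm38.p6). Figures used Python 3.11.15 and matplotlib 3.10.9.

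The genes and lists were chosen with earlier results of these data known. Named besides the 10 genes are *Celf1*, *Xist*, *Eif2s3y*, 8 genes fixed by name and up to 3 genes per list and direction with the smallest p; other names were chosen after their values were seen. Alternatives were quantile normalization, median centring, other constants, dim probes left out, trended and robust moderation, weighted arrays, a block for the replicate letter, the mean of a gene's probes, each array left out, and mutant array C alone.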

Additional observations from a re-analysis of the deposited data

How the results depend on the processing

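For the 15 probes, the count past the adjusted threshold was 0 under every alternative, the replicate block included. The whole-array count of 1494 probes lay between 420 and 1494 with 1 array left out (420 without control B, 728 without mutant B), and was 2227 with the replicate block. That of 1110 genes lay between 223 and 1179 (223 without control B, 604 without mutant B, 653 without control A), and that of 10 listed genes between 1 and 15. Deviations of same-lettered arrays correlated with r = -0.00028 for A and 0.0203 for B over the probes. Mutant A with control B gave 0.00028, and mutant B with control A gave -0.0203. The deviations of the control arrays mirror each other, so these correlations cannot decide whether same-lettered arrays share more than a name. With the replicate block 13 listed genes passed.

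Within the lists, leaving out 1 array gave 0 to 2 genes for glutathione synthesis (2 with all arrays), 0 to 2 for transferases (2), 0 to 3 for peroxidases (2), 1 to 4 for Nrf2 and its regulators (3), 0 to 4 for other Nrf2 targets (2) and 0 to 2 for close relatives (1). With the lowest value set to 64, synthesis and peroxidases held 1 each and relatives 0. With it set to 1, and with trended and robust moderation, peroxidases and other targets held 1 each. Transferases held 1 with array weights, regulators 1 in mutant array C alone, and relatives 2 with the replicate block.

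Differences that turned sign belonged to genes that did not pass in either setting, and the cause was not tested. In mutant array C alone these were *Gclm* (-0.111), *Hmox1* (-0.570), *Me1* (-0.0973), *Txnrd1* (-0.0304) and the dimmer *Nqo1* probe (0.0741). The dimmer *Nqo1* probe also became 0.0116 with median centring and 0.000151 with the lowest value set to 64, and the dimmer *Gstm1* probe -0.0074 with array weights and -0.0310 with the replicate block. With 1 array left out, the differences ranged from -0.0816 to 0.236 for *Gclm*, -0.419 to 0.00405 for *Gsta4*, -0.0310 to 0.0662 for the dimmer *Gstm1* probe, -0.0355 to 0.168 for the brighter and -0.0371 to 0.0291 for the dimmer *Nqo1* probe, -0.149 to 0.318 for *Hmox1*, -0.0898 to 0.0155 for *Keap1* and -0.0272 to 0.0274 for *Txnrd1*.

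Probes near background limit what can be seen: *Gclc*, *Nqo1*, *Osgin1*, *Nfe2l2* and *Txnrd1* read below 20 on every array.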
